A study of Homo sapiens with 8 samples.

Results

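The genes described here are 31 G2/M and mitosis genes, a list given by name, out of the 24630 genes and unmatched accessions that the RNA count tables of this series yield. They were followed in PC9R and PC9, cell lines grown from human lung adenocarcinoma. PC9 cells depend on a mutated, active EGFR, gefitinib inhibits the kinase of that receptor, and PC9R was obtained from PC9 by gefitinib treatment for 1 to 2 weeks. Both lines were used at passages 8 to 12. Each line has 2 RNA-seq libraries, 1 map of DNase hypersensitive sites (DHS, open chromatin) and 1 map of the histone mark H3K4me2, which lies at promoters and enhancers. PC9R is 1 selected line, and gefitinib exposure and line cannot be told apart. The labels do not say that the paired RNA libraries were grown as separate cultures; p-values therefore reflect library-to-library spread alone, and that spread may be technical.

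Cells build up the RNAs of these genes as they pass from DNA replication into mitosis and lose them soon after division. Cyclin A and cyclin B activate CDK1, Polo-like and Aurora kinases assemble the spindle, the spindle checkpoint holds the cell until every kinetochore is attached, and the anaphase-promoting complex then destroys cyclin B and securin. In G0 and early G1 the DREAM complex keeps many such promoters silent through a short element called CHR, while B-MYB, FOXM1 and the CCAAT-binding factor NF-Y act on them in dividing cells. The summed RNA of the genes is widely used as a proliferation score. In bulk libraries, fewer cells in mitosis and less RNA per cell cannot be told apart.

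The promoters below are shown because these elements recur in promoters of the listed genes. They belong to the 4 genes with the highest mean RNA level among those with a single RefSeq accession and a CHR-like motif, and each runs over the 250 bases before the RefSeq start site on GRCh38.p14, 5′ to 3′. Capitals mark the CHR-like motif (TTTGAA, its reverse TTCAAA, or TTCGAA) and the CCAAT box (CCAAT or its reverse ATTGG).
TOP2A promoter, chr17:40417897-40418146, minus strand: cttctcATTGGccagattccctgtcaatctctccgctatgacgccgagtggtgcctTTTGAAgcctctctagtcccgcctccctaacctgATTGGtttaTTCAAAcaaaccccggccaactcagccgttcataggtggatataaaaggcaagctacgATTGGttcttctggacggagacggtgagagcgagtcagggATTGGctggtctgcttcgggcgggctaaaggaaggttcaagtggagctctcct
CENPF promoter, chr1:214602945-214603194, plus strand: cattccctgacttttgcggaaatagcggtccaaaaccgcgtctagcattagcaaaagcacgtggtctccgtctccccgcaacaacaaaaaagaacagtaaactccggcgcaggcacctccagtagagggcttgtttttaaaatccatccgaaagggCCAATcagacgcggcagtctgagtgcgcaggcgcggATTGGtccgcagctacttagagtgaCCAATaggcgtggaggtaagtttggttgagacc
KIF11 promoter, chr10:92592880-92593129, plus strand: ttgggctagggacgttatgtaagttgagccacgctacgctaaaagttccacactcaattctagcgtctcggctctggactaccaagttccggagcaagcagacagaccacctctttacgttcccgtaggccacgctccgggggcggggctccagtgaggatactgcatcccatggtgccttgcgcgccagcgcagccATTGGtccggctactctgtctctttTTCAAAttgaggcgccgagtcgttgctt
CDC20 promoter, chr1:43358731-43358980, plus strand: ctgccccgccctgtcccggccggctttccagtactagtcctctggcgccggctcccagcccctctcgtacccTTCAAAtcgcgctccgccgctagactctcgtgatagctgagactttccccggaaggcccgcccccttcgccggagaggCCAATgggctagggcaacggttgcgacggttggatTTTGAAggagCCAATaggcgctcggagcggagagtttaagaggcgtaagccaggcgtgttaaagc

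In CDC20 a CHR-like motif starts 65 bases before the start site and a CCAAT box 55 bases before it, and in KIF11 the motifs start 28 and 53 bases before it. In CENPF the CHR-like motif begins 40 bases after the start site, outside the stretch printed, and TOP2A holds 2 copies of it and 4 CCAAT boxes. RefSeq promoters of 300 bases (250 before the start and 50 after it) were found for 26 of the 31 genes. Of these, 18 hold TTTGAA or TTCGAA on either strand, against 16.4% of the 34943 RefSeq promoters of the same length, and 20 hold a CCAAT box, against 34.6%. Both occur together in 15 of the 26, against 6.40% of all promoters. In the 250 bases before the start alone, the stretch printed, 12 of 26 hold the CHR-like motif, against 14.4% of all promoters. There 20 hold a CCAAT box, against 32.0%, and 11 hold both, against 5.07%. A match is a string of letters and not a measured binding site.

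The RNA tables count reads per RefSeq accession, and counts were summed per gene. The 15 genes with 1 accession are well counted, at 36.1 CPM (a count scaled to the library's total, as TMM normalisation sets it) or more in every library. The other 16 have 2 to 8 accessions. Of all genes, 8198 are of that kind, and their share of a library's counts was 6.74% to 7.07%. A low value in them therefore need not be a low expression level, and their values compare only the reads counted. BUB1 and NUSAP1, with 3 and 5 accessions, had 0 counts in every library, where 3 counts would be 0.0923 to 0.187 CPM, yet both had a promoter DHS peak and promoter H3K4me2 in each line. The remaining 29 passed the filter on low counts. Libraries held 32502455 and 16715426 counts in PC9R, and 32515891 and 16013058 in PC9, in the order first and second. Epithelial keratins were abundant, with KRT7 at 5371 to 9115 CPM in PC9R and 5288 to 12192 CPM in PC9, whereas the alveolar markers NKX2-1 and SFTPB, with 2 accessions each, had at most 9 counts in a library. NAPSA, a further alveolar marker with 1 accession, was low, at 2.02 and 0.713 CPM in PC9R, against 0.91 and 0.40 CPM in PC9. Summed CPM of 5 leukocyte, 4 endothelial and 5 fibroblast markers was 13.6 to 70.5 in PC9R and 5.93 to 23.9 in PC9. These sums were scaled to the library's total without TMM, unlike the CPM of single markers, so a single value can slightly exceed its sum. The endothelial markers CDH5 (35.8 and 13.3 CPM in PC9R, against 15.6 and 8.81 CPM in PC9) and PECAM1 (9.71 and 6.48 CPM in PC9R, against 5.17 and 3.604 CPM in PC9) were higher in PC9R in both pairs of libraries, while KDR had at most 1 count in a library. VWF, also an endothelial marker, had 1.28 and 0.297 CPM in PC9R, against 1.60 and 0.267 CPM in PC9. It was thus lower in PC9R in the first libraries. CD68, a macrophage marker, had 17.1 and 13.5 CPM in PC9R, against 8.499 and 8.475 CPM in PC9, and PTPRC had at most 1 count in a library over its 4 accessions. COL1A1 made up most of the fibroblast sum, at 64.2 and 13.7 CPM in PC9R and 24.1 and 6.01 CPM in PC9, and COL3A1 had at most 2 counts in a library. Of the 13 markers tested, 0 passed edgeR's test, against 0.253% of all genes. With library number in the fit 4 of 13 passed (CDH1, CD68, CDH5 and COL1A1, all higher in PC9R), against 20.8% of all genes. The part of these markers in the results was not tested.

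None of the mitosis genes passed the test between PC9R and PC9. With edgeR's quasi-likelihood test over 12660 genes, 0 of 29 had an adjusted p under 0.05, against 0.253% of all genes, and 0 had an unadjusted p under 0.05, against 7.27% of all genes; DESeq2 and limma-voom also called 0. Of the 29, 23 had a log2 fold change below 0 and 6 above it, with a median of -0.28 against -0.01 over all genes. The median moved with single libraries. It was 0.32 without the first PC9R library, -1.42 without the second PC9R library, -0.50 without the first PC9 library and 0.11 without the second PC9 library. The 31 genes together took 0.328% of the counts in the first and 0.978% in the second PC9R library, against 0.521% and 0.737% in those of PC9. The PC9R libraries thus lay on either side of both PC9 libraries.

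No mitotic cyclin was separated between the lines. CCNB1, the cyclin that drives entry into mitosis, had 301 and 989 CPM in the first and second PC9R libraries, against 589.7 and 819.8 CPM in those of PC9. Its mean level was 645 ± 487 CPM in PC9R and 705 ± 163 CPM in PC9 (SD, n = 2 each; log2 fold change -0.13 ± 0.63 SE; edgeR adjusted p = 0.999). The PC9R values enclosed those of PC9. CCNB2, a second B-type cyclin, had 72.1 and 202 CPM in PC9R, against 126 and 148 CPM in PC9, and again the PC9 values lay between those of PC9R. CCNA2, the cyclin of S phase and G2, had 142 and 688 CPM in PC9R, against 162 and 349.8 CPM in PC9. It had the highest fold change of the single-accession genes, 0.70 ± 0.78 (SE; edgeR adjusted p = 0.999), with PC9R lower in the first libraries and higher in the second. CDK1, the kinase that these cyclins activate, has 4 accessions and had 25.7 and 149.9 CPM in PC9R, against 59.5 and 178 CPM in PC9, while its phosphatase CDC25C had 4.07 and 11.8 CPM in PC9R and 9.69 and 12.4 CPM in PC9.

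**Figure D1:**
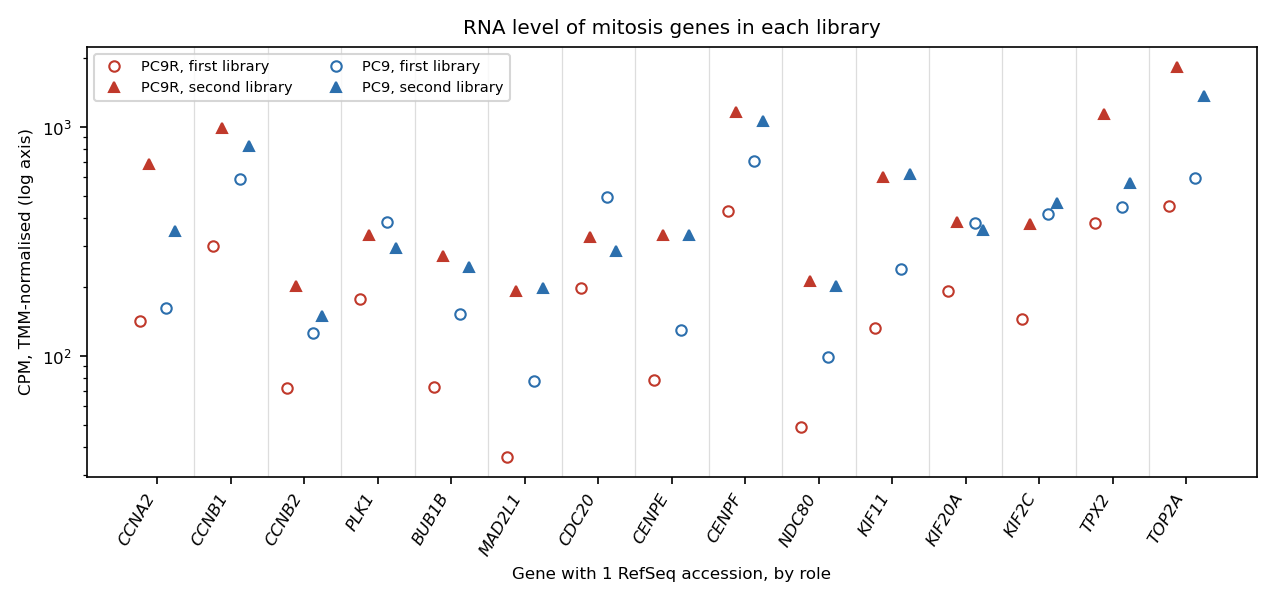
RNA level (CPM after TMM normalisation, log axis) of the 15 mitosis genes with 1 RefSeq accession, one column per gene, with PC9R in red on the left and PC9 in blue on the right; open circles are first and filled triangles second libraries. The first PC9R library was the lowest of the 4 in all 15 genes, between 36.1 and 449 CPM.

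Kinases and checkpoint genes showed the same spread. PLK1, the Polo-like kinase of spindle assembly and cytokinesis, had 177 and 337 CPM in PC9R, against 382 and 294 CPM in PC9 (means 257 ± 114 and 338 ± 61.9 CPM, SD, n = 2 each; log2 fold change -0.40 ± 0.55 SE; edgeR adjusted p = 0.999). BUB1B, whose product BUBR1 is part of the checkpoint complex that blocks CDC20, had 72.8 and 273 CPM in PC9R and 152 and 244 CPM in PC9 (log2 fold change -0.20 ± 0.70 SE; adjusted p from edgeR = 0.999). In both genes the libraries of the lines overlapped. MAD2L1, another checkpoint protein gene, had 36.1 and 191 CPM in PC9R, against 77.9 and 198 CPM in PC9, so that here the second libraries were nearly level. The Aurora kinase genes AURKA (6 accessions) and AURKB (2) and the checkpoint kinase gene TTK (2) were counted at no more than 13.8 CPM in any library.

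Of the genes of the anaphase-promoting complex, CDC20, its mitotic activator, had 197 and 331 CPM in PC9R, against 495 and 287 CPM in PC9 (log2 fold change -0.57 ± 0.55 SE; edgeR adjusted p = 0.999). The PC9R libraries did not both lie below those of PC9, since the second PC9 library was lower than the second of PC9R. UBE2C, the ubiquitin-conjugating enzyme that works with the complex, has 8 accessions and had 2.90 and 6.42 CPM in PC9R, against 9.53 and 7.81 CPM in PC9. PTTG1 encodes securin, the inhibitor of separase, and with 3 accessions had 6.01 and 18.8 CPM in PC9R and 17.7 and 20.6 CPM in PC9.

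Single-accession kinetochore genes were nearly level between the second libraries. CENPF, a large protein of the outer kinetochore, had 426 and 1154 CPM in PC9R, against 707 and 1059.8 CPM in PC9 (log2 fold change -0.16 ± 0.59 SE; edgeR adjusted p = 0.999). CENPE, a kinesin that moves chromosomes to the spindle equator, had 78.4 and 335 CPM in PC9R, against 129.6 and 335 CPM in PC9. NDC80, the microtubule-binding subunit of the kinetochore, had 48.7 and 211 CPM in PC9R, against 98.6 and 202 CPM in PC9. Each of these genes was lower in PC9R in the first libraries, and in the second libraries the lines differed by at most 0.12 on the log2 scale. CENPA, the centromeric histone H3, and NUF2, the partner of NDC80, have 2 accessions each and were counted at 8.00 CPM at most.

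Among motor and spindle genes, fold changes of both signs were found. KIF2C, a kinesin that takes microtubules apart at centromeres, had 144 and 375 CPM in PC9R, against 416 and 463 CPM in PC9 (means 259 ± 163 and 439 ± 33.2 CPM, SD, n = 2 each; log2 fold change -0.76 ± 0.59 SE; edgeR adjusted p = 0.999). This was the lowest fold change among the single-accession genes, and its PC9R libraries both lay below those of PC9. Together with UBE2C and CENPA, it made 3 of 29 genes with this order, against 14.9% of all genes. In 0 of 29 were both PC9R libraries above those of PC9, against 16.9%, which follows because PC9R was lower in the first libraries in all 29. KIF11, the motor that separates spindle poles, had 133 and 601 CPM in PC9R and 239 and 621 CPM in PC9 (log2 fold change -0.23 ± 0.78 SE; edgeR adjusted p = 0.999). KIF20A, a kinesin of cytokinesis, had 191 and 385 CPM in PC9R, against 381 and 353 CPM in PC9. TPX2, which activates Aurora A at the spindle, had 379 and 1135 CPM in PC9R, against 447 and 565 CPM in PC9 (log2 fold change 0.58 ± 0.61 SE; edgeR adjusted p = 0.999). TPX2 and CCNA2 were the single-accession genes in which the second PC9R library stood farthest above the second of PC9, by 1.01 and 0.98 on the log2 scale.

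TOP2A, the topoisomerase that untangles chromosomes, had 449 and 1829.9 CPM in PC9R, against 597 and 1364 CPM in PC9 (log2 fold change 0.22 ± 0.72 SE; edgeR adjusted p = 0.999). MKI67, which encodes the proliferation marker Ki-67 and has 2 accessions, had 27.2 and 71.3 CPM in PC9R, against 62.7 and 65.3 CPM in PC9. ASPM, a spindle pole protein also with 2 accessions, had 111 and 387 CPM in PC9R, against 123 and 252 CPM in PC9. In all of these genes the values of the lines overlapped. Of the 14 tested genes with several accessions, 10 or 11 were under 20 CPM in each library, and the kinesin gene KIF23, the hyaluronan receptor and spindle gene HMMR and the passenger complex gene BIRC5, which encodes survivin, had 4.07 CPM at most. Per kb of the canonical transcript and over single-accession genes, CCNB1 had the highest mean level in both lines, 318 ± 240 CPM per kb in PC9R and 347 ± 80.2 in PC9 (SD, n = 2 each). TPX2 came next in PC9R (218 ± 154) and CDC20 in PC9 (237 ± 89.2), with spreads that overlap that of CCNB1.

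The pattern that the 29 genes shared was a difference between the pairs of libraries. Within the first libraries PC9R was lower in 29 of 29 genes, against 51.4% of all genes, at a median log2 difference of -1.02 (middle 50% of the genes -1.23 to -0.73). Within the second libraries PC9R was lower in 12 of 29, against 49.4% of all genes, at a median of 0.12 (range -1.36 to 1.65). Over all genes the median was -0.02 within the first libraries and 0.01 within the second. PC9R was lower in both pairs in the same 12 genes (CDK1, CDC25C, TTK, MAD2L1, UBE2C, PTTG1, CENPA, KIF11, KIF23, KIF2C, HMMR and BIRC5), a share near the 37.4% of all genes. It was higher in both pairs in 0, against 36.6%. As all 29 were lower in the first libraries, both counts follow from those above and add nothing to them. With 1 library per line in each pair, these differences have no test of their own.

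The shift between the pairs ran the same way in nearly all of them. The difference between the lines in the first libraries minus that in the second was below 0 in 28 of 29 genes, against 51.5% of all genes, with a median of -1.22 where the middle 50% of all genes ran from -0.40 to 0.36. Over the 15 single-accession genes it ranged from -1.54 to -0.73, so each lay below that middle range. The exception above 0 was KIF23, at 0.02. Which genes were relatively high or low in PC9R was alike in both pairs: the differences correlated across the 15 genes at Pearson 0.818 and Spearman 0.536, and across all 12660 genes at 0.776 and 0.658. The pairs share no library, but genes are not independent replicates.

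**Figure D2:**
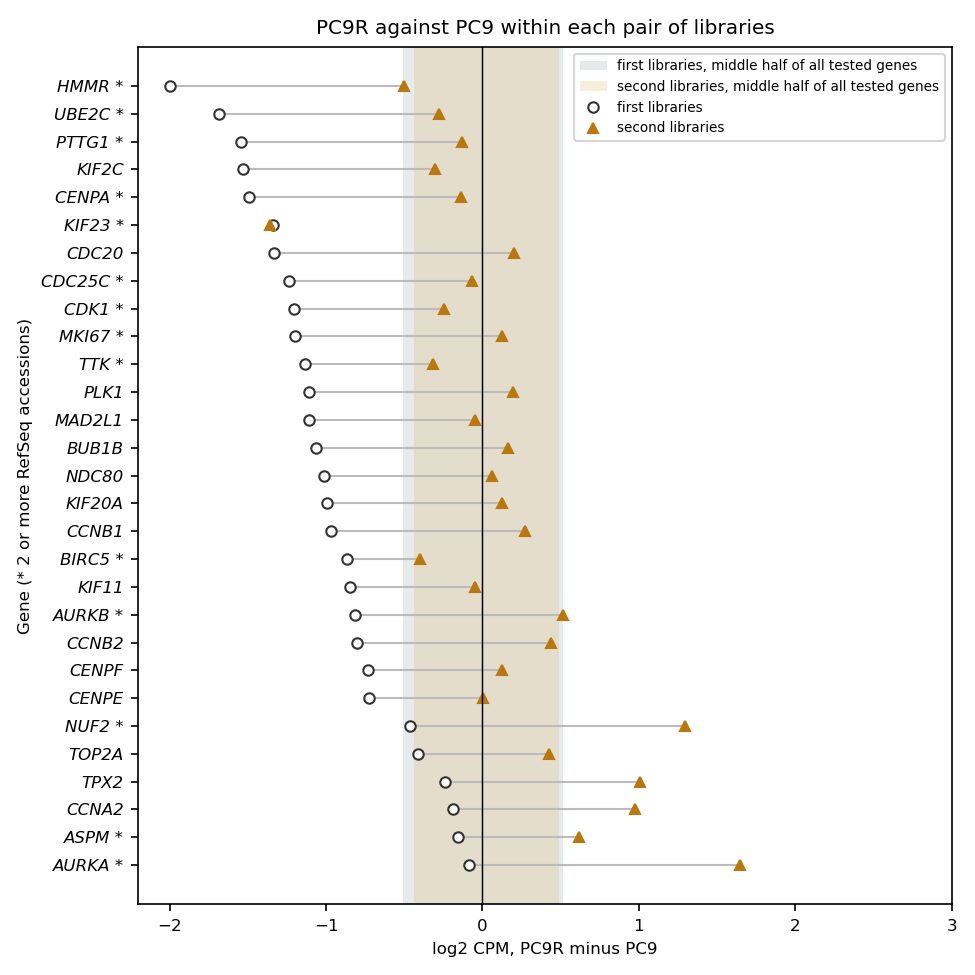
Log2 CPM of PC9R minus PC9 for the 29 tested mitosis genes, within the first libraries (open circles) and within the second (filled triangles); shading is the middle 50% of all tested genes in each pair, and * marks genes with 2 or more accessions. Every open circle lies below 0, at a median of -1.02, while the triangles lie on both sides of 0, at a median of 0.12.

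First and second libraries of a line also differed along the GC content of transcripts, and the levels above were not corrected for GC content. In PC9R the second library was higher than the first in 29 of 29 genes (median log2 difference 1.52), and in PC9 in 21 of 29 (median 0.48). Over all 12660 tested genes it was higher in 6123 in PC9R (median -0.053) and in 6104 in PC9 (median -0.052). Across the 15 single-accession genes this difference was smaller at higher GC content, at Pearson -0.878 in PC9R and -0.940 in PC9; across 11885 tested genes it was -0.641 and -0.725. CENPE, at 35.1% GC, was higher in the second library by 2.09 in PC9R and 1.37 in PC9. At the other end, PLK1 at 57.1% GC differed by 0.93 in PC9R and -0.38 in PC9, and CDC20 at 56.9% GC by 0.75 and -0.79. The 2972 genes lowest in GC, which hold 14 of the 29, had a median PC9R minus PC9 of -0.07 within the first libraries and -0.13 within the second, and a median second minus first of 0.81 in PC9R and 0.98 in PC9. The part of GC content in the difference between the pairs was not tested.

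**Figure D3:**
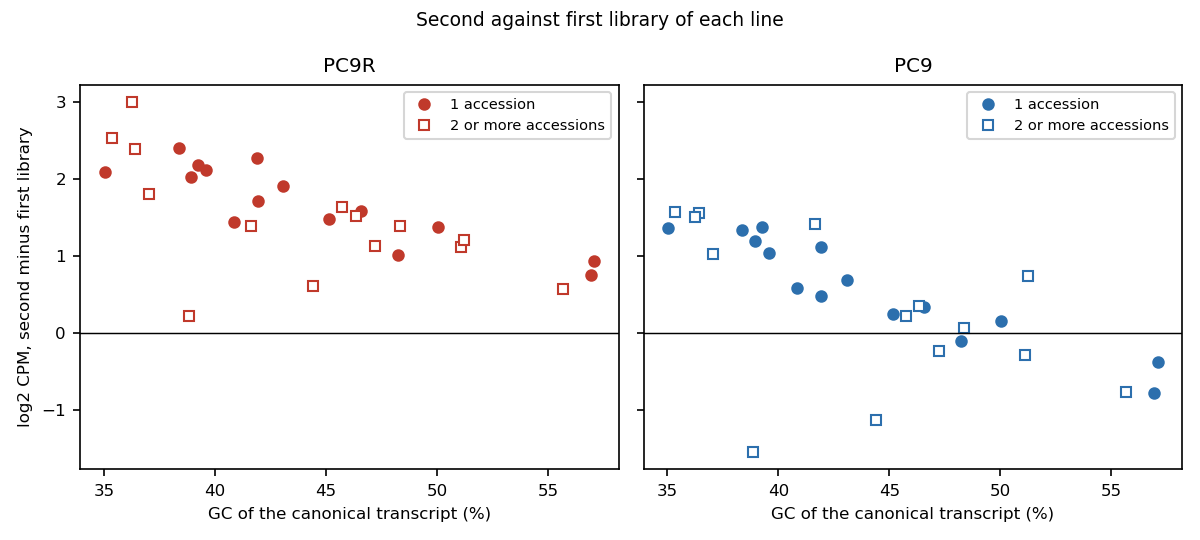
Log2 CPM of the second minus the first library against GC content of the canonical transcript, for the 29 tested mitosis genes in PC9R (left, red) and PC9 (right, blue); filled circles have 1 accession and open squares 2 or more. In both lines the difference is smaller at higher GC, and the PC9R points sit higher, at a median of 1.52 against 0.48 in PC9.

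When library number (first or second) was a term in the edgeR fit, again 0 of the 29 genes passed, while 20.8% of all genes did. The smallest adjusted p among them was 0.0551, for KIF2C (log2 fold change -0.92, SE 0.29; lower in PC9R in both pairs). An unadjusted p under 0.05 was found for 7 of the 29, a share below the 36.0% of all genes in that fit. That fit has 1 residual degree of freedom.

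Other genes of mitosis were read from a list of 91, of which 82 passed the filter. Without library number in the fit 0 passed (0 at an unadjusted p under 0.05), and their median log2 fold change was -0.19. Within the first libraries 69 of 82 were lower in PC9R (median -0.66), against 51.4% of all genes. Within the second 33 of 82 were lower (median 0.11), against 49.4%. With library number in the fit, 8 of 82 passed, all lower, a share near the 9.57% of all genes that were called lower in that fit. The 4 of them above 10 CPM were STAG1, a cohesin subunit gene (105 ± 66.3 CPM in PC9R and 205 ± 129 CPM in PC9, SD, n = 2 each; log2 fold change -0.97, edgeR adjusted p = 0.00974), the centromere gene CENPW (-1.10, edgeR adjusted p = 0.0341), the kinesin gene KIF20B (-0.80, edgeR adjusted p = 0.0330) and LIN52, a subunit of the DREAM complex (-0.72, edgeR adjusted p = 0.0393). The other 4, CDC16, CDC25A, SKA3 and DLGAP5, have 2 accessions each and were under 10 CPM on average in both lines; they are named after their values were seen. In STAG1 the difference was -0.98 within the first libraries and -0.97 within the second. Genes pass that fit more readily where the pairs are alike, so this likeness follows from how STAG1 was chosen. MYBL2, which encodes B-MYB and has 2 accessions, had 25.1 and 52.9 CPM in PC9R, against 46.9 and 47.2 CPM in PC9, an order like that of MKI67. FOXM1 (5 accessions) was counted at 0.171 and 1.61 CPM in PC9R and 0.784 and 1.07 CPM in PC9, too low to read. WEE1, the kinase that inhibits CDK1, had 17.1 and 9.75 CPM in PC9R, against 18.1 and 6.74 CPM in PC9. CDKN1A, the gene of the CDK inhibitor p21, has 4 accessions and 38 counts in all and was not tested. Of 28 genes of DNA replication, which peak before the mitotic genes, 24 were tested. In either fit 0 of 24 passed, against 0.253% of all genes without library number and 20.8% with it. Their median PC9R minus PC9 was -0.75 within the first and 0.21 within the second libraries.

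Promoters of the mitosis genes carried H3K4me2 in both lines. A promoter here is 1 kb either side of any annotated start site, in GENCODE 44 coordinates on GRCh37 (hg19, the build named for the peak files), and a single overlapping base counted. All 31 genes had an H3K4me2 peak in PC9R and in PC9, against 93.9% and 93.4% of the tested genes, so the share is near the background. The highest-scored H3K4me2 peak of each gene was at a median percentile of 95.4 of its own list in PC9R and 84.3 in PC9, by the authors' score, whose scale is not stated. This median was not computed over all tested genes, and the peak can lie far from the canonical start site. For KIF11 in PC9 it was centred at -19600 bases from that site, at percentile 98.7, while the peak over the site was at 64.6. H3K4me2 peaks covered a median of 1423 bases of the window around the canonical start site in PC9R and 1646 bases in PC9, and less in PC9R than in PC9 in 28 of 31 genes; over tested genes the share covered less in PC9R was 82.3%. The PC9R list has narrower peaks throughout (median 395 against 546 bases). Each line has 1 library of each kind, so peak differences between the lines were neither replicated nor tested.

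Open chromatin was found at most of these promoters. A DHS peak lay in the promoter of 25 of 31 genes in PC9R and 24 of 31 in PC9, against 57.9% and 48.9% of tested genes, although the PC9R list is longer, at 59600 peaks against 19648. Both lines had one in 20 of 31 genes, against 38.6% of tested genes. Among them are UBE2C, PTTG1, CDK1, AURKA and NUF2, whose PC9R peaks were in the upper 2% of their list by score. Others ranked low. Over the 25 genes in PC9R the highest-scored peak had a median percentile of 84.2 (range 17.1 to 99.4). Over the 24 in PC9 it was 80.7 (range 1.15 to 98.2). Such percentiles were not computed over all tested genes. The AURKA peak ran from 54967034 to 54968057 on chromosome 20 in PC9R (1024 bases) and from 54967099 to 54967836 in PC9, over the canonical start site at 54967271, although few AURKA reads were counted. PTTG1 had nearly the same peak in both lines, from 159848797 to 159849086 on chromosome 5 in PC9R and from 159848810 to 159849073 in PC9. The canonical start site itself lay inside a DHS peak in 14 of 31 genes in PC9R and 16 of 31 in PC9, against 17.6% and 18.3% of tested genes, and inside an H3K4me2 peak in 23 and 20, against 41.6% and 56.7%.

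A promoter DHS peak was present in PC9R only for CCNA2, BUB1B, CENPE, ASPM and BIRC5, and in PC9 only for CCNB2, AURKB, KIF20A and KIF23. These 5 and 4 of 31 genes are near the background, which was 19.3% of tested genes with a peak in PC9R only and 10.3% with one in PC9 only. In CCNA2 the peak ran from 122744333 to 122745082 on chromosome 4, over the start site at 122745038, and ranked 741 of 59600 by score. ASPM had a PC9R peak over its start site on chromosome 1, from 197115492 to 197116020, at percentile 92.4. The BUB1B peak was narrow and low, 178 bases at percentile 17.1 of the PC9R list, and the PC9-only peaks of CCNB2 and KIF20A were likewise low in the PC9 list, at percentiles 18.2 and 14.9. PLK1 and MAD2L1 had no promoter DHS peak in either line, as did 31.8% of tested genes, although PLK1 was at 177 to 382 CPM. CDC25C had its DHS peak at the canonical start site in PC9 alone; both lines also had peaks around another annotated start upstream, from 137673310 to 137674369 on chromosome 5 in PC9R and from 137673232 to 137673935 in PC9, against the canonical start at 137667493. For TOP2A, CENPF, KIF11 and CDC20, whose promoters are printed above, both lines had a DHS peak, and in CDC20 it lay from 43824080 to 43824471 on chromosome 1 in PC9R and from 43824100 to 43824453 in PC9, upstream of the start at 43824652.

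**Figure D4:**
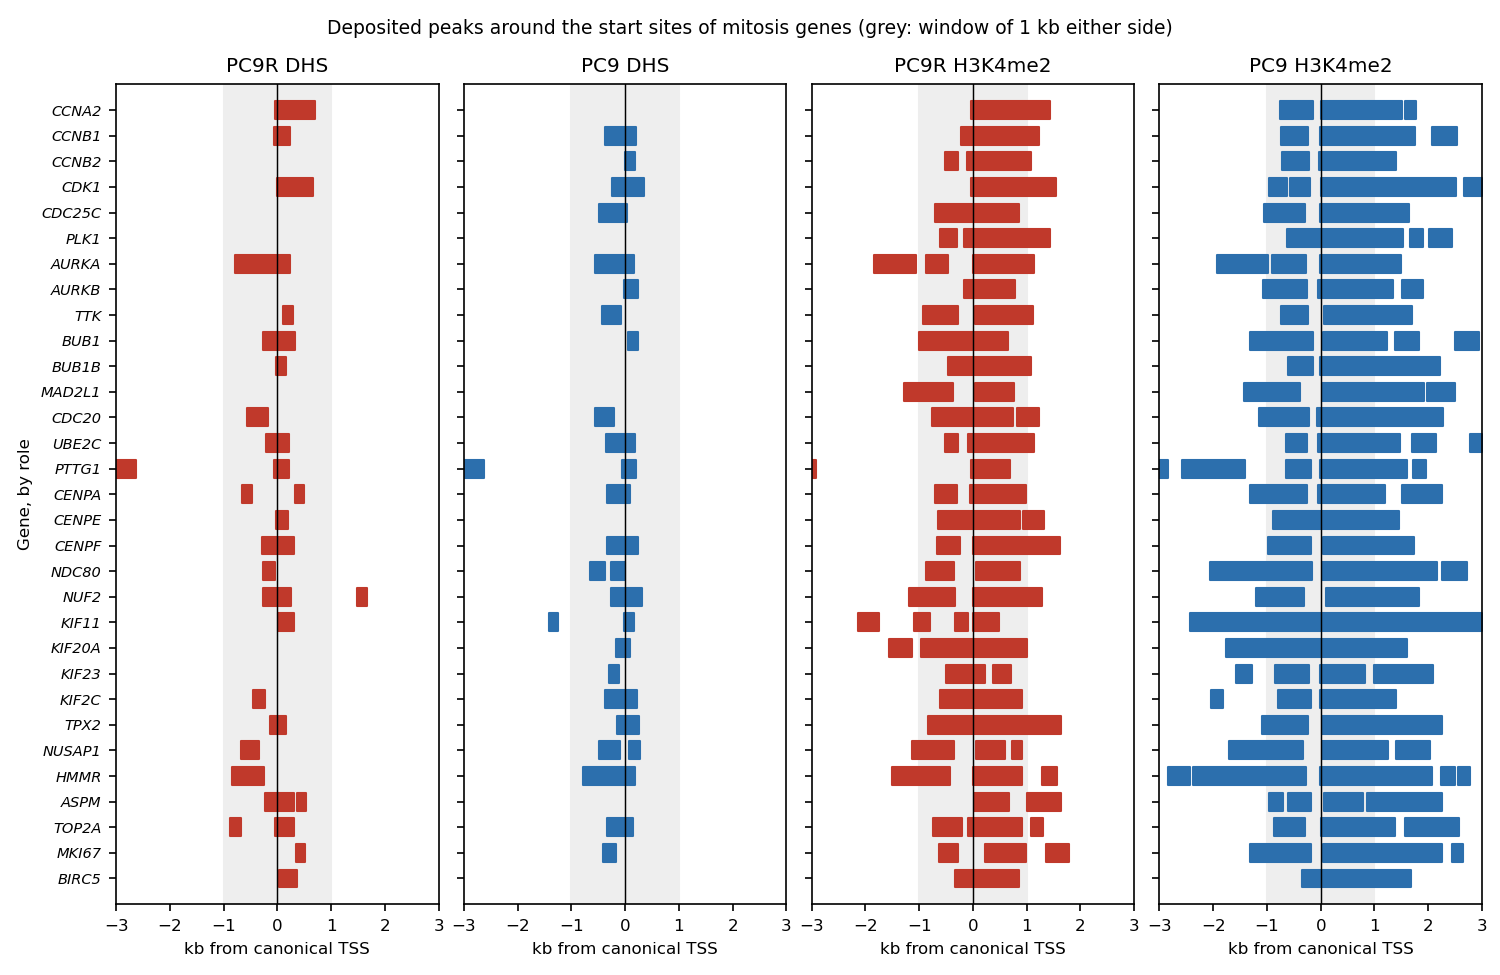
Deposited DHS and H3K4me2 peaks within 3 kb of the canonical start site of the 31 mitosis genes, drawn in the direction of transcription, with PC9R (red) left of PC9 (blue) for each assay; grey marks 1 kb either side. H3K4me2 flanks or covers the start in every gene of both lines, while DHS peaks within any start-site window were found in 25 genes in PC9R and 24 in PC9.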

How the data were processed

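RNA levels are counts deposited by the authors per RefSeq accession (42811 accessions, 1 library per file). Each deposited peak file is 1 library's list; the score column is the authors' own and its scale is unstated. The build hg19 and the tools DESeq, HTSeq, TopHat and MACS2 come from the submitters' processing notes, without versions; for counting mode, strand and peak threshold nothing is stated in the labels or headers. Accessions were matched to genes by the RefSeq table of GRCh38.p14 (41556 matched), and counts were summed. PC9R and PC9 were compared by edgeR's quasi-likelihood test (edgeR 4.0.16, R 4.3.3) after TMM and filterByExpr, without a block, calling genes at a Benjamini-Hochberg adjusted p under 0.05; SE is the fold change over the root of F. Log2 values within pairs used a prior count of 2. Differences are PC9R minus PC9. Alternatives were other scalings, filters and accession sums, library number as a block, DESeq2 1.42.0, limma-voom (limma 3.58.1), leaving out each library, and other promoter windows and peak subsets. Scripts were tested on simulated data. No peak lay past a chromosome end of GRCh37. The genes and lists were chosen with earlier results of these data known. Fold changes with their test are given for the single-accession gene with the highest mean CPM in each role and those with the lowest and highest fold change; of other mitosis genes, FOXM1, MYBL2, WEE1, CDKN1A and up to 5 per direction called in either fit at 10 CPM or more are named. Floors of 3 counts cover counting error only.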

Additional observations from a re-analysis of the deposited data

How the results depend on the processing

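The count of called mitosis genes was 0 under every alternative run, and that of replication genes too. The count over all genes was 32 and moved to 0 with upper quartile scaling and with the stricter filter (at least 5 CPM in 2 libraries; edgeR unadjusted p under 0.05 for 919 and 446 genes), 440 with no filter, 381 with DESeq2 and 73 with limma-voom; leaving out 1 library gave 83 to 254. The labels do not say whether same-numbered libraries of the lines were made together. Second-minus-first differences of the lines had a correlation of 0.788 across genes. Under the replicate block 2631 genes passed (1420 higher, 1211 lower), as did 8 other mitosis genes against 0 without it. With 1 library left out, a fit with the block has no residual degrees of freedom and was not run. The biological coefficient of variation was 0.180 with the replicate block and 0.498 without. The median log2 fold change of the members, -0.28, ran from -1.42 to 0.32 when 1 library was left out, and stayed between -0.49 and -0.20 under the other settings. Under the same omissions TOP2A ran from -1.15 to 0.92, CENPF from -1.07 to 0.39, CCNB1 from -1.24 to 0.49, TPX2 from -0.43 to 1.17, KIF11 from -1.71 to 0.60, BUB1B from -1.46 to 0.47 and CCNA2 from -0.86 to 1.43, whereas CDC20 (-1.01 to -0.13), PLK1 (-0.95 to -0.0009) and KIF2C (-1.63 to -0.23) kept their sign. Those fits take the lone library's spread from the other line. TOP2A was at -0.0147 with limma-voom. The cause was not tested. Counts of genes with a promoter peak stayed within 1.5 times for the other windows, the upper 50% of each list by score, the stricter overlap and, chosen after seeing the data, the canonical start site alone (24 in PC9R and 24 in PC9 for DHS).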
